A study of Mus musculus with 23 samples.

Results

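The 10 genes described are secreted or membrane-bound factors that support the survival or growth of other cells: Igf1, Vegfa, Vegfb, Pdgfa, Pdgfb, Tgfb1, Hbegf, Osm, Grn and Csf1. They were chosen by name, and all 10 were found among the 35825 genes of the expression table. Their levels were measured by RNA-seq in 23 libraries of GFP+ microglia sorted from mouse retinas. WT is CX3CR1-GFP, in which GFP replaces part of the fractalkine receptor gene Cx3cr1 (heterozygous mice were used for breeding), and KO is Spp1 KO; CX3CR1-GFP, in which Spp1, encoding the secreted protein osteopontin, is knocked out in all cells of the body and the same GFP allele is carried. Naïve retinas gave 4 WT and 4 KO libraries, retinas 4 weeks after microbeads were injected into the anterior chamber to raise the intraocular pressure (IOP) gave 4 and 4, and retinas 7 days after optic nerve crush (ONC) gave 3 and 4. By the methods, retinas of several mice of 1 genotype and condition were pooled before sorting, while a figure legend of the paper gives 4 mice for these expression data. Which mice entered which library, with their ages, is not given in the sources used here, so p-values measure the spread between libraries. The naïve libraries are titled control and have the treatment "none". The methods give a saline injection for control mice of the microbead model, and whether the retinas sequenced here had one is not given in the sources used here.

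Microglia both use and make trophic factors. CSF1, like IL-34, signals through CSF1R, on which microglia depend for their survival, and TGF-β1 keeps them in their homeostatic state. IGF-1 is known as a microglial support for neurons and oligodendrocytes, progranulin (Grn) is a secreted glycoprotein that also serves lysosomal function, VEGF and PDGF act mainly on vessels, pericytes and glial precursors, HB-EGF on the EGF receptor family, and oncostatin M (Osm) on gp130 receptors.

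The libraries did not all follow their labels. Spp1 itself stood at 334 to 1518 normalized counts in naïve WT, 1343 to 2772 in WT IOP and 14557 to 22906 in WT ONC libraries, but 3 of the 4 libraries labelled KO ONC held 4750 to 6811, 2 labelled KO IOP held 761 and 811, and 1 labelled KO naïve held 350.2. Which exons the KO allele removes is not given in the sources used here, so these reads do not settle the genotype. Cx3cr1 was at 952 to 1233 in KO IOP against 26836 to 54612 in WT IOP libraries. The Y-linked gene Ddx3y was at most 3.05 in KO IOP against 633 to 2274 in WT IOP libraries. Genotype at Cx3cr1 and sex therefore cannot be told apart from the condition there. In WT ONC replicates 1 to 3 Ddx3y was 1797, 9.21 and 3.51, against 1369 to 1717 in KO ONC libraries. It was 0 in naïve WT replicate 3 and 556 to 2623 in replicates 1, 2 and 4. In naïve KO libraries it was 28.1 in replicate 3 and 1302 to 1713 in replicates 1, 2 and 4. Sex is thus spread unevenly over the naïve and ONC libraries too, and its part in the differences was not tested. The methods give equal numbers of males and females for the study as a whole. None of the 12 microglia markers was at 0 throughout a group, and together they took 1.94 to 3.68% of the normalized counts outside naïve KO retinas, but 1.23%, 1.53% and 1.68% in naïve KO replicates 1, 2 and 4 and 3.58% in replicate 3. Rod photoreceptor markers took 3.03 to 3.57% in replicates 1, 2 and 4 and 1.14% in replicate 3. WT IOP libraries were uneven too. Microglia markers took 1.94 and 2.15% in WT IOP replicates 1 and 4, against 3.07 and 3.27% in replicates 2 and 3. Rod markers took 2.44 and 2.65% in WT IOP replicates 1 and 4, against 1.58 and 1.79% in replicates 2 and 3. Of the 12 microglia markers, 6 were called higher and 1 lower in KO IOP than in naïve KO libraries, and 9 were called higher in KO ONC. Fits with the mean of 11 microglia markers (the 12 without Cx3cr1, the locus of the GFP allele) as a covariate, or levels relative to their sum, are therefore given below beside the differences of the 10 genes from naïve KO libraries. Markers of border macrophages, tissue macrophages related to microglia, took 0.115 to 0.236% of the normalized counts in naïve WT, 0.0125 to 0.0478% in WT ONC and 0.0463 to 0.142% in KO ONC libraries. Of these 8 markers, 7 were called lower in WT ONC than in naïve WT libraries, and all 8 were higher in KO ONC than in WT ONC libraries at an unadjusted p under 0.05 (1 of them called).

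All 10 genes were read in all 23 libraries at 10 normalized counts or more. Per kilobase of annotated exon, the mean level over the 23 libraries was 29605 normalized counts for Grn, far above the rest, then 225 for Csf1, 112 for Igf1 and 98.6 for Osm. Pdgfa (86.3), Vegfa (83.0), Pdgfb (82.9), Vegfb (73.2), Hbegf (61.4) and Tgfb1 (44.3) completed the order per kilobase, in which the neighbours from Osm to Vegfb overlapped library by library. Across the 6 groups, 4 of the 10 genes differed (limma F test, adjusted p of 2.32e-06 for Csf1, 1.42e-05 for Grn, 2.68e-05 for Hbegf and 0.0155 for Pdgfa), where 31.4% of the 17102 genes tested did. For the other 6 the adjusted p lay between 0.0713 (Igf1) and 0.485 (Pdgfb).

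**Figure D1:**
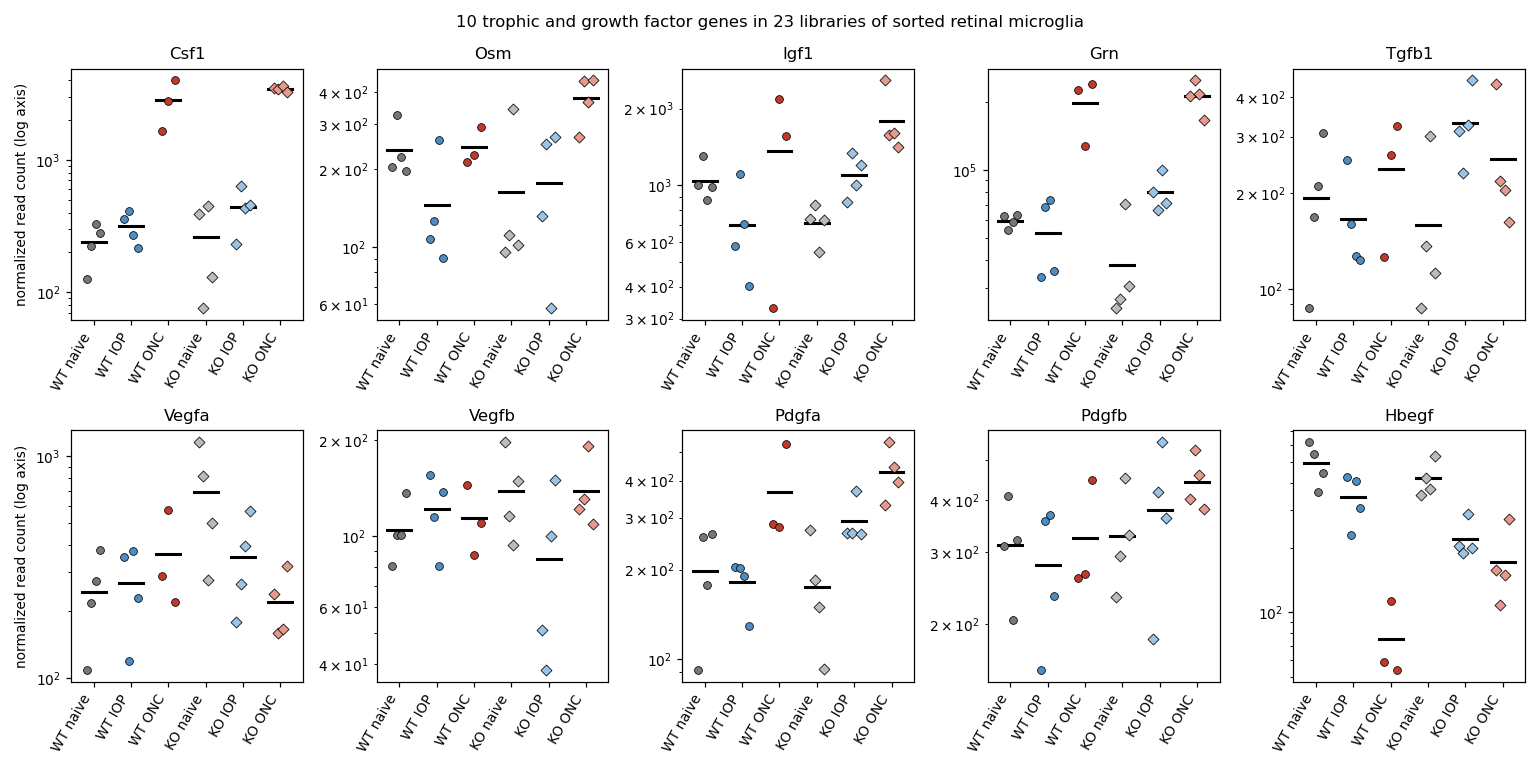
Normalized read count on a log axis of each of the 10 genes in the 23 libraries, by group (circles WT, diamonds KO, 1 point per library, bars the group mean). Csf1 and Grn stand above all naïve and IOP libraries in the 7 ONC libraries, and Hbegf lies at 53.8 to 113 in the WT ONC libraries, below all naïve and IOP libraries.

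Windows around an annotated start of Csf1 and Grn are shown because these are the 2 genes that rose after ONC in both genotypes. They run from 250 bases before to 50 bases after the annotated start in RefSeq's GRCm38.p6, are written 5′ to 3′ on the gene's strand, and carry in capitals each match to 6 motifs searched on both strands. These were CACGTG (E-box), TGACTCA (AP-1), GAGGAAGT (PU.1), GGANTTTCC (an NF-κB site), TGACGTCA (CRE) and GGGCGG (GC box). Csf1 lies at chr3:107741048-107760469 on the minus strand and its window at chr3:107760420-107760719, and Grn at chr11:102430315-102437048 on the plus strand with its window at chr11:102430257-102430556. The gene coordinates are those of GENCODE M21. Most of the Grn window lies inside them, because the RefSeq start it is set on does.
Csf1: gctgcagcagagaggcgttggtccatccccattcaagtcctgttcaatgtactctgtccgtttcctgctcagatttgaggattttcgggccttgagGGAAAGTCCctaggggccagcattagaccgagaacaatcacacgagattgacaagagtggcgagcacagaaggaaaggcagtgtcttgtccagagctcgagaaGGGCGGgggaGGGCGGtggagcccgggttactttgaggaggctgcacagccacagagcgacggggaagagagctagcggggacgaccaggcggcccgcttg
Grn: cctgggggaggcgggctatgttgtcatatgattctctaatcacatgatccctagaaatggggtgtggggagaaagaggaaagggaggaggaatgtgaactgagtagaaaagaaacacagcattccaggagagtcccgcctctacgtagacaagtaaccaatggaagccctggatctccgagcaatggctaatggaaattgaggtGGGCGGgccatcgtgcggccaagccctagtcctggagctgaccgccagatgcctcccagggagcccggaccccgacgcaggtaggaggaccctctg
The Csf1 window held 1 match to the NF-κB motif, GGAAAGTCC at bases 97 to 105, which is the motif on the opposite strand, and 2 GC boxes at bases 200 to 205 and 210 to 215. Of the 32851 windows of this length in the table, 1.25% held the NF-κB motif and 35.7% a GC box. In the Grn window only a GC box was matched, at bases 205 to 210. The E-box was found in 7.15% of all windows, AP-1 in 5.20%, PU.1 in 3.20% and CRE in 1.79%, and in neither of these 2. Windows were held for 7 of the 10 genes, and Pdgfb, Hbegf and Osm had none. Among the windows of the other 5 genes with one, the 6 motifs matched GC boxes only, in Vegfa, Vegfb, Pdgfa and Tgfb1, and matched nothing in Igf1. The shorter hypoxia core ACGTG, held by 19.6% of all windows and contained in the E-box, was matched in 1 of the 2 Vegfa windows. A match is a run of letters and not a measured site.

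Csf1, a ligand of CSF1R, showed the largest change of the set after ONC. Its normalized counts were 125, 223, 327 and 279.5 in naïve WT and 1643, 2811 and 4024 in WT ONC libraries. They were 389, 75.6, 450.4 and 131 in naïve KO and 3518, 3446, 3639 and 3271 in KO ONC libraries. All 7 ONC libraries lay above all 8 naïve libraries, and the KO ONC libraries, at 3271 to 3639, were within a narrow range for their level. Csf1 rose in WT (log2 fold change 3.55 ± 0.49 SE, adjusted p = 4.02e-05, 11.8-fold by the means) and in KO (log2 fold change 4.08 ± 0.45 SE, adjusted p = 4.55e-06, 13.3-fold). After IOP elevation it was 360.0, 414, 273 and 215 in WT libraries, which overlapped naïve WT, and 232, 636, 432 and 455 in KO libraries, which overlapped naïve KO (log2 fold change 1.01 ± 0.45 SE, adjusted p = 0.155). Leaving out naïve KO replicate 3 made this last difference pass (log2 fold change 1.39, adjusted p = 0.034). With the microglia marker covariate the rise in KO after ONC was kept (log2 fold change 3.57, adjusted p = 0.00393), and the difference in KO IOP was 0.58 (adjusted p = 0.866). Relative to the sum of the 11 microglia markers, Csf1 was 0.127 to 0.448% in ONC libraries and 0.0145 to 0.141% in the 16 naïve and IOP libraries, and only naïve KO replicate 1 overlapped the ONC range. The difference between genotypes after ONC was log2 difference 0.39 ± 0.49 SE, adjusted p = 0.868, and the interaction of genotype and ONC log2 difference 0.53 ± 0.67 SE, adjusted p = 0.798.

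The other ligand of CSF1R moved apart from Csf1. Il34 was 231, 208, 168 and 185 in naïve WT and 0, 67.9 and 23.4 in WT ONC libraries, and it fell (log2 fold change -4.05 ± 0.94 SE, adjusted p = 0.00497). In KO it was 218, 164, 118 and 122 in naïve and 41.9, 32.6, 28.9 and 109 in ONC libraries, all ONC values lying below all naïve ones, and this difference did not pass the test (log2 fold change -1.70 ± 0.87 SE, adjusted p = 0.16). Csf1r, the receptor, was 321788, 232785, 296562 and 280766 in naïve WT and 358498, 231053 and 402467 in WT ONC libraries, which overlapped. In naïve KO libraries it was 100511, 104617, 327832 and 123206, low in the same 3 libraries in which the microglia markers as a whole were low. Il34 is known as a neuronal product in the retina, and markers of retinal ganglion cells took 0.00407 to 0.0161% of the normalized counts in ONC and 0.0416 to 0.0726% in naïve libraries; their part in the fall of Il34 was not tested.

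**Figure D2:**
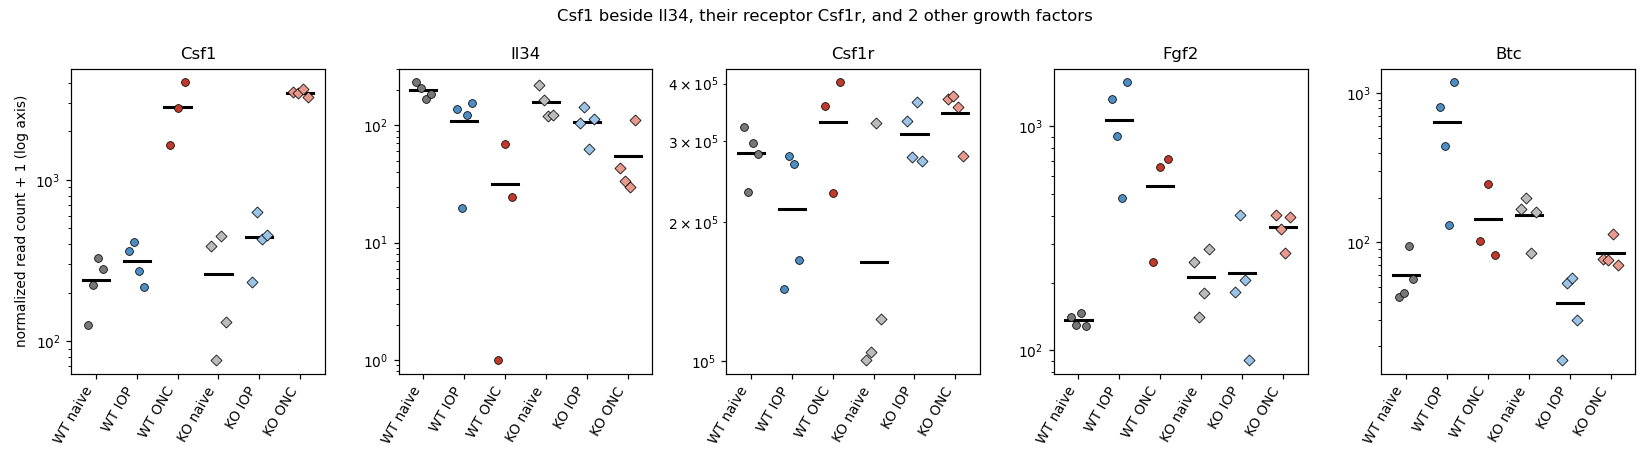
Normalized read count plus 1 on a log axis of Csf1, Il34, their receptor Csf1r, and the growth factors Fgf2 and Btc, by group (circles WT, diamonds KO, 1 point per library, bars the group mean). Csf1 is high and Il34 low in the ONC libraries, and the highest values of Fgf2 and Btc are in WT IOP replicates 1, 2 and 4.

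Grn, which encodes progranulin, was the most abundant gene of the set and rose after ONC in both genotypes. It was 62439, 54374, 58667 and 63098 in naïve WT and 226199, 128210.0 and 241226 in WT ONC libraries (log2 fold change 1.68 ± 0.34 SE, adjusted p = 0.00169, 3.33-fold by the means). In KO it was 24323, 26876, 70507 and 30615 in naïve and 213796, 251025, 217853 and 166534 in ONC libraries (log2 fold change 2.61 ± 0.32 SE, adjusted p = 1.09e-05, 5.58-fold). The 7 ONC libraries lay above all other libraries, and the lowest of them, WT ONC replicate 2, was the ONC library with the highest rod share (1.86%, against 0.506 to 1.03% in the other 6). In RNA from a sorted pool, fewer cells of a type and less RNA per cell cannot be told apart.

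After IOP elevation Grn was 33491, 68378, 73773 and 35571 in WT libraries, on both sides of naïve WT (log2 fold change -0.27 ± 0.32 SE, adjusted p = 0.772). In KO IOP libraries it was 80230.1, 66815, 100228 and 71256, against the naïve KO values above, of which replicate 3 lay inside the IOP range. Grn rose in KO (log2 fold change 1.19 ± 0.32 SE, adjusted p = 0.0298), and the interaction of genotype and IOP passed too (log2 difference 1.46 ± 0.45 SE, adjusted p = 0.0451). The call in KO was lost in 7 of 8 fits without 1 library, all but that without naïve KO replicate 3 (adjusted p from 0.05 to 0.112), and the interaction in 13 of 16 (adjusted p from 0.0547 to 0.112). KO and WT overlapped both in naïve retinas (log2 difference -0.79 ± 0.32 SE, adjusted p = 0.222) and after IOP elevation (log2 difference 0.67 ± 0.32 SE, adjusted p = 0.23), and the first difference passed without naïve KO replicate 3 (log2 difference -1.13, adjusted p = 0.00993).

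These Grn differences after IOP elevation moved with the microglia markers. Relative to the 11 markers, Grn was 7.26 to 8.32% in naïve WT and 7.41 to 9.54% in WT IOP libraries. It was 7.72 to 9.18% in naïve KO and 8.66 to 9.98% in KO IOP libraries. These 4 groups overlapped each other, except that all KO IOP libraries lay above all naïve WT ones. In the WT ONC libraries it was 17.4 to 21.2% and in the KO ONC libraries 21.7 to 23.4%, above all 16 others. The mean ratio after ONC was 2.55 times that of naïve retinas in WT and 2.58 times in KO. With the mean of the markers as a covariate, the log2 fold change of Grn in KO IOP against naïve KO went from 1.19 to 0.0856 (adjusted p = 0.924) and the interaction from 1.46 to -0.0193 (adjusted p = 0.979). The difference between genotypes in naïve retinas went from -0.79 to 0.16 (adjusted p = 0.825), and that after IOP elevation from 0.67 to 0.14 (adjusted p = 0.54). For ONC the interaction with genotype was log2 difference 0.92 ± 0.47 SE, adjusted p = 0.423, and -0.0033 with the covariate. With the same covariate the rise after ONC in KO kept a log2 fold change of 1.30 (adjusted p = 2.83e-05). Of the 12 markers, 2 were themselves called after ONC in WT and 9 in KO. Among the genes most like Grn over the 23 libraries were Ctsz and Ctsb, which encode lysosomal cathepsins, and Ly6e (Pearson r of log2 values 0.994, 0.984 and 0.993). These libraries share their group, depth and cell makeup.

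**Figure D3:**
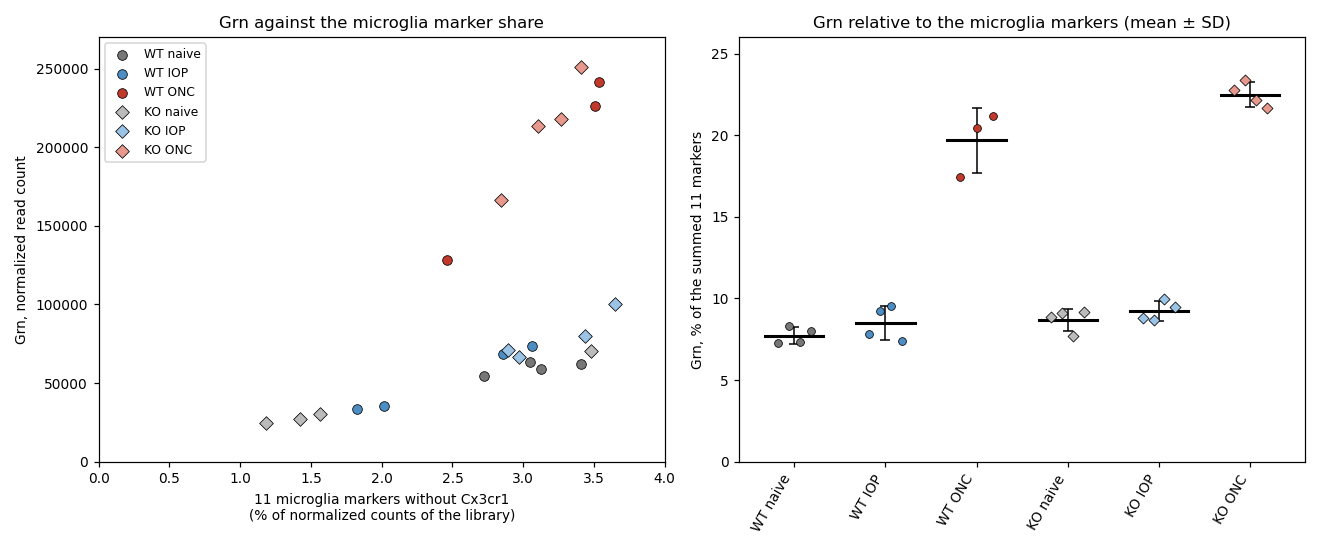
Left, Grn in normalized read counts against the share of 11 microglia markers in percent of each library's normalized counts; right, Grn in percent of the summed markers by group, with group means and SD (circles WT, diamonds KO, 1 point per library). Naïve and IOP libraries of both genotypes lie between 7.26 and 9.98% and ONC libraries between 17.4 and 23.4%.

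Hbegf, an EGF receptor ligand that is shed from the membrane, was the gene of the set that fell after ONC in both genotypes. It was 621, 548, 364 and 448 in naïve WT and 59.1, 113 and 53.8 in WT ONC libraries (log2 fold change -2.75 ± 0.33 SE, adjusted p = 1.11e-05, a ratio of means of 0.152). In KO it was 353, 421, 377 and 534 in naïve and 157, 109, 150.0 and 271 in ONC libraries (log2 fold change -1.35 ± 0.31 SE, adjusted p = 0.00312, a ratio of 0.408). All ONC libraries were below all naïve libraries of their genotype. After IOP elevation it was 426, 229.9, 409 and 305 in WT libraries, overlapping naïve WT, and 205, 189.9, 288 and 199 in KO libraries, all below naïve KO (log2 fold change -0.93 ± 0.31 SE, adjusted p = 0.0625). Without naïve KO replicate 3 this difference passed (log2 fold change -0.98, adjusted p = 0.0473), and with the microglia marker covariate it was -0.56 (adjusted p = 0.773). KO IOP libraries overlapped those of WT IOP (log2 difference -0.61 ± 0.31 SE, adjusted p = 0.258).

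Between genotypes after ONC, Hbegf had the lowest p of the 10 genes and did not pass the test (log2 difference 1.18 ± 0.33 SE, adjusted p = 0.24, unadjusted p = 0.0019). KO ONC replicate 2, at 109, lay below WT ONC replicate 2, at 113, and all other KO ONC libraries lay above all WT ONC ones. Without WT ONC replicate 2 the difference passed (log2 fold change 1.51, adjusted p = 0.0178). The interaction of genotype and ONC was log2 difference 1.40 ± 0.45 SE, adjusted p = 0.206. Over the 23 libraries Hbegf had a Pearson r of 0.87 with the log2 share of ganglion cell markers (0.59 within groups), of 0.66 with that of border macrophage markers (-0.27 within groups) and of -0.38 with that of microglia markers, and the genes most like it were 2900011O08Rik, Chn1 and Reep2 (r of 0.944, 0.944 and 0.938). The part of ganglion cell and border macrophage RNA in the values of Hbegf was not tested. With the microglia marker covariate the call in WT held, while in KO the log2 fold change was -0.91 (adjusted p = 0.335).

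**Figure D4:**
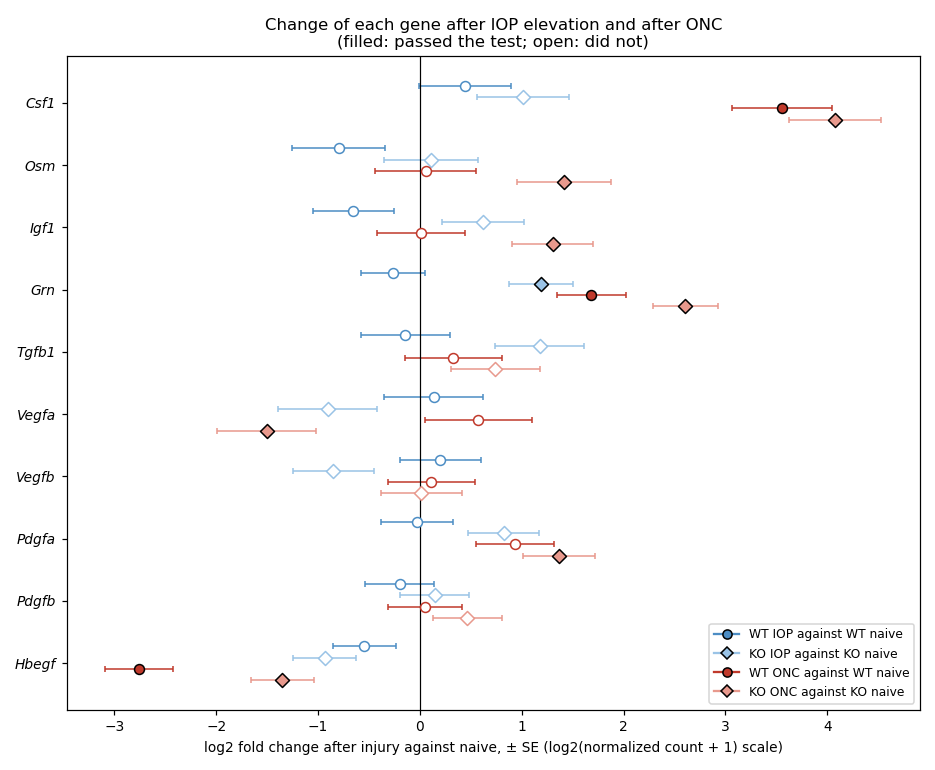
Log2 fold change against naïve retinas of the same genotype, with its standard error, for the 10 genes after IOP elevation and after ONC (circles WT, diamonds KO, filled where the test was passed). Csf1 and Grn lie to the right and Hbegf to the left after ONC in both genotypes, and Grn is the filled point after IOP elevation, in KO.

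Igf1, a trophic ligand of the insulin-like growth factor receptor, was called higher after ONC in KO, and the difference between genotypes did not pass the test. It was 1001, 1302, 877 and 982 in naïve WT and 329, 2189.9 and 1555 in WT ONC libraries, where replicate 1 was the lowest and replicate 2 above all other WT libraries (log2 fold change 0.01 ± 0.43 SE, adjusted p = 0.989). In KO it was 740.5, 836, 546 and 733 in naïve and 2589, 1579, 1602 and 1409 in ONC libraries, all ONC values above all naïve ones, and it rose (log2 fold change 1.30 ± 0.40 SE, adjusted p = 0.0209). Without KO ONC replicate 1, the highest library, the call was lost (log2 fold change 1.11, adjusted p = 0.0707). It was also lost with the microglia marker covariate, although the log2 fold change was larger there (1.89, adjusted p = 0.0819). Relative to the sum of the 11 markers, the mean of Igf1 in KO ONC was 0.925 times that in naïve KO libraries, with overlap. This ratio moved in the direction opposite to the covariate fit. The interaction of genotype and ONC was log2 difference 1.29 ± 0.59 SE, adjusted p = 0.375, and the difference of KO ONC from WT ONC (log2 difference 0.75 ± 0.43 SE, adjusted p = 0.629) turned to -0.0820 without WT ONC replicate 1. That library also had the lowest share of Müller glia and astrocyte markers of all 23 (0.178%, against 0.460 and 1.02% in the other WT ONC libraries), and within groups Igf1 had a Pearson r of 0.89 with the log2 share of that list and of 0.62 with that of border macrophage markers. The Müller glia and astrocyte list includes Apoe, also listed here as a gene of injury-state microglia, so its share does not measure these glia alone. In KO IOP against naïve KO libraries 9 of its 11 tested genes were lower, while its median share was 1.61 against 1.14%. What part Müller glia, astrocytes and border macrophages have in the Igf1 reads was not tested.

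After IOP elevation Igf1 was 579.8, 1109, 705 and 404 in WT libraries (log2 fold change -0.65 ± 0.40 SE, adjusted p = 0.507) and 857, 1340.1, 1001 and 1199.5 in KO libraries (log2 fold change 0.62 ± 0.40 SE, adjusted p = 0.331). The KO IOP libraries against those of WT IOP gave log2 difference 0.73 ± 0.40 SE, adjusted p = 0.301 (0.97 with the microglia marker covariate, adjusted p = 0.261). All KO IOP libraries lay above all naïve KO ones, and the WT IOP libraries ran from below to within the naïve WT range. The interaction of genotype and IOP was log2 difference 1.27 ± 0.57 SE, adjusted p = 0.156, and passed in a fit of the 4 groups alone (adjusted p = 0.0363). Relative to the 11 markers the mean of Igf1 in KO IOP was 0.634 times that in naïve KO libraries, with overlap. With the covariate the log2 fold change was 1.12 (adjusted p = 0.619), so these adjustments moved it in opposite directions. Within groups Igf1 had a Pearson r of -0.18 with the log2 share of microglia markers. In naïve retinas all KO libraries lay below all WT libraries (log2 difference -0.54 ± 0.40 SE, adjusted p = 0.537).

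Osm, a cytokine of the IL-6 family, was 204, 325, 223 and 198 in naïve WT and 213, 227 and 294 in WT ONC libraries, which overlapped. In KO it was 95.5, 112, 345 and 102 in naïve and 268, 442, 366 and 445 in ONC libraries, and it rose (log2 fold change 1.41 ± 0.46 SE, adjusted p = 0.0281), although naïve KO replicate 3 lay inside the ONC range. This call was lost in 6 of 8 fits without 1 library, all but those without naïve KO replicate 3 or KO ONC replicate 1 (adjusted p from 0.0569 to 0.0862), and with the microglia marker covariate (log2 fold change 0.55, adjusted p = 0.756). After IOP elevation Osm was 107, 126, 259 and 90.4 in WT (log2 fold change -0.80 ± 0.46 SE, adjusted p = 0.473) and 132, 250.1, 57.7 and 268 in KO libraries. Both ranges overlapped those of naïve retinas, and the interaction of genotype and IOP was log2 difference 0.91 ± 0.65 SE, adjusted p = 0.393. Between genotypes Osm gave log2 difference -0.74 ± 0.46 SE, adjusted p = 0.454 in naïve retinas (-0.11 with the covariate, adjusted p = 0.981) and log2 difference 0.62 ± 0.50 SE, adjusted p = 0.748 after ONC, with overlap in both, and the interaction of genotype and ONC was log2 difference 1.36 ± 0.68 SE, adjusted p = 0.415.

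Of the PDGF ligands, Pdgfa was called after ONC in KO, and Pdgfb in no comparison. Pdgfa, the A chain, was 91.4, 257, 178 and 265 in naïve WT and 286, 279.6 and 533 in WT ONC libraries, which did not overlap, and this difference missed the threshold (log2 fold change 0.93 ± 0.38 SE, adjusted p = 0.0891). In KO it was 272, 184, 150.1 and 92.6 in naïve and 332, 541, 444 and 396 in ONC libraries, again without overlap, and it rose (log2 fold change 1.37 ± 0.35 SE, adjusted p = 0.00699). It kept this call in all 8 fits without 1 library. With the microglia marker covariate the call was lost although the log2 fold change was not smaller (1.40, adjusted p = 0.184). Pdgfa in KO IOP libraries was 267, 265, 368 and 265 (log2 fold change 0.82 ± 0.35 SE, adjusted p = 0.137), with 3 libraries nearly equal and replicate 3 apart (0.85 with the covariate, adjusted p = 0.705), and in WT IOP libraries 204, 203, 190.5 and 129. The difference of KO IOP from WT IOP, whose libraries did not overlap, was log2 difference 0.69 ± 0.35 SE, adjusted p = 0.266, and the interaction of genotype and IOP log2 difference 0.85 ± 0.50 SE, adjusted p = 0.281. Over the 23 libraries the genes most like Pdgfa were Chn2, Relb, which encodes an NF-κB subunit, and Stx2 (Pearson r of 0.909, 0.887 and 0.876).

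Pdgfb, the B chain, ran from 155 in WT IOP replicate 1 to 554 in KO IOP replicate 3. Its group means lay between 279 and 444 normalized counts. No comparison of Pdgfb reached an unadjusted p under 0.05, and the groups overlapped in all 7 comparisons between groups.

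Among the VEGF ligands, Vegfa was spread widely within groups. It was 108, 219, 273 and 379.8 in naïve WT and 1163, 814, 278 and 498 in naïve KO libraries (log2 difference 1.43 ± 0.49 SE, adjusted p = 0.145), and this difference passed only without naïve KO replicate 3 (log2 fold change 1.80, adjusted p = 0.0227). With the microglia marker covariate it was 0.44 (adjusted p = 0.901). Among the 4 naïve KO libraries, replicate 1 was the highest and replicate 3 the lowest both in Vegfa and in the share of pigment epithelium markers (0.329, 0.114, 0.0423 and 0.130% in replicates 1 to 4), and Vegfa ran in the order opposite to the share of microglia markers. The part of other cells in the Vegfa level was not tested. In KO ONC libraries Vegfa was 238, 159, 167 and 318, and it fell against naïve KO (log2 fold change -1.50 ± 0.49 SE, adjusted p = 0.0276). In WT ONC libraries it was 289, 575 and 219.9 (log2 fold change 0.57 ± 0.52 SE, adjusted p = 0.467).

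The fall of Vegfa in KO after ONC was lost without naïve KO replicate 1 or 2 or KO ONC replicate 2 or 3 (adjusted p from 0.0745 to 0.104), and with the microglia marker covariate its log2 fold change was -0.13 (adjusted p = 0.955). The interaction of genotype and ONC was log2 difference -2.07 ± 0.71 SE, adjusted p = 0.23. After IOP elevation Vegfa was 349.9, 119, 372 and 230.4 in WT and 178, 266, 396 and 564 in KO libraries, the latter overlapping naïve KO (log2 fold change -0.90 ± 0.49 SE, adjusted p = 0.235; 0.26 with the covariate, adjusted p = 0.944). The interaction of genotype and IOP was log2 difference -1.04 ± 0.69 SE, adjusted p = 0.35, and KO ONC libraries differed from WT ONC by log2 difference -0.64 ± 0.52 SE, adjusted p = 0.752. Vegfb lay between 38.2 and 198 normalized counts in all libraries. Its lowest values were in KO IOP replicates 1 and 2 (50.9 and 38.2), and KO IOP differed from naïve KO by log2 fold change -0.85 ± 0.40 SE, adjusted p = 0.171, which did not pass the test (-0.56 with the covariate, adjusted p = 0.851). Against WT IOP libraries the difference was log2 difference -0.68 ± 0.40 SE, adjusted p = 0.327, and the interaction of genotype and IOP log2 difference -1.05 ± 0.56 SE, adjusted p = 0.238.

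Tgfb1, the TGF-β that holds microglia in their homeostatic state, was 313, 231, 326 and 451 in KO IOP libraries, 87.4, 136, 301 and 112 in naïve KO and 254, 159.9, 127 and 123 in WT IOP libraries. KO IOP libraries were mostly above both, with 1 library of each comparison group inside their range. Neither difference passed the test (log2 fold change 1.17 ± 0.44 SE, adjusted p = 0.0917 against naïve KO and log2 difference 1.01 ± 0.44 SE, adjusted p = 0.197 against WT IOP), and without naïve KO replicate 3 the first one did (log2 fold change 1.54, adjusted p = 0.0181). With the microglia marker covariate it was 0.84 (adjusted p = 0.773), and relative to the 11 markers the mean of Tgfb1 in KO IOP was 1.09 times that in naïve KO libraries. The interaction of genotype and IOP was log2 difference 1.32 ± 0.62 SE, adjusted p = 0.181, and KO ONC against naïve KO gave log2 fold change 0.74 ± 0.44 SE, adjusted p = 0.225 (0.34 with the covariate, adjusted p = 0.872). In the other groups Tgfb1 lay between 87.0 and 439 normalized counts, with overlap between naïve and ONC libraries in both genotypes.

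Counted over the set, 0 of the 10 genes were called after IOP elevation in WT, where 1.56% of all genes were. By edgeR and DESeq2 0 were called too, and 0 had an unadjusted p under 0.05 (2279 of the 17102 genes tested had). In KO after IOP elevation 1 was called (7.88% of all genes), and groups did not overlap for 2 (11.7%). There 6 had an unadjusted p under 0.05, as did 4635 of the 17102 genes tested. After ONC 3 were called in WT, 2 higher and 1 lower (18.1% of all genes, 7.55% higher and 10.5% lower), and 7 in KO, 5 higher and 2 lower (23.6%, 12.7% and 11%). With the microglia marker covariate 2 of those 7 stayed called, Grn and Csf1. Groups did not overlap for 4 genes in WT ONC (26.4% of all genes) and 5 in KO ONC (26.5%). The median log2 fold change of the 10 genes was 0.22 in WT ONC and 1.02 in KO ONC, against -0.10 and -0.12 over all genes tested. The 12 microglia markers had a median of 1.26 in KO ONC. These comparisons share the naïve libraries of their genotype.

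KO and WT were set against each other in each condition. None of the 10 genes was called in naïve retinas (0.409% of all genes were), after IOP elevation (2.11%) or after ONC (0.0877%), and edgeR and DESeq2 on recovered reads called 0 in each. An unadjusted p under 0.05 was reached by 2, 2 and 1 of them, and by 2670, 3602 and 1601 of the 17102 genes tested. Groups did not overlap for 1 gene in naïve retinas, Igf1 (9.6% of all genes), 1 after IOP elevation, Pdgfa (13%), and 0 after ONC (6.32%). In the interaction of genotype with IOP, 1 gene, Grn, was called (8.75% of all genes). In that with ONC 0 were (0.0702%), and 0 by edgeR or DESeq2. There 3 had an unadjusted p under 0.05, as did 2125 of the 17102 genes tested.

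The receptors of these factors were taken as a list of 24 genes, all tested. After ONC 2 rose and 2 fell in WT, and 6 rose and 4 fell in KO, comparisons in which 18.1% and 23.6% of all genes were called. The median log2 fold changes of the list were -0.08 and -0.36, against -0.10 and -0.12 over all genes. In KO ONC, where 9 of the 12 microglia markers rose too, the count called went from 10 to 1 with the microglia marker covariate. Csf1r is both one of these receptors and one of the markers in that covariate, so the fit cannot judge it apart from them. Cd9, a tetraspanin that binds the HB-EGF precursor, rose in WT (log2 fold change 1.93 ± 0.38 SE, adjusted p = 0.00114) and KO (log2 fold change 1.79 ± 0.35 SE, adjusted p = 0.000865), and Acvrl1, a TGF-β family type I receptor, rose by 1.12 ± 0.28 SE and 1.01 ± 0.26 SE on the log2 scale. Egfr, the receptor of HB-EGF, fell in both (log2 fold change -2.58 ± 0.86 SE, adjusted p = 0.0403 in WT and log2 fold change -2.21 ± 0.80 SE, adjusted p = 0.0463 in KO), and Lifr, a partner of gp130, fell in WT by 1.01 ± 0.30 SE on the log2 scale. Csf1r and Eng, a TGF-β co-receptor, rose in KO. After IOP elevation 0 were called in WT (1.56% of all genes) and 5 rose in KO (7.88%), among them Tgfbr1, Tgfbr2 and Nrp1, in the comparison in which 6 of the 12 microglia markers rose, and 0 were called there with the covariate. With the insulin receptor gene Insr, 1 receptor was called between genotypes, lower in KO IOP than in WT IOP libraries (log2 difference -0.60 ± 0.15 SE, adjusted p = 0.0371).

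Genes that bind, activate or shed these factors formed a list of 29, of which 27 were tested. After IOP elevation in WT 1 rose and 1 fell (1.56% of all genes were called). Igfbp7, which encodes a secreted IGF-binding-protein family member, was 448, 122, 76.4 and 484 in WT IOP and 8.88 to 24.5 in naïve WT libraries, and it rose (log2 fold change 3.68 ± 0.79 SE, adjusted p = 0.0175) and was lower in KO IOP than in WT IOP libraries (log2 difference -3.17 ± 0.79 SE, adjusted p = 0.0371). WT IOP replicates 1 and 4, its highest libraries, were also the 2 with the highest share of lens markers (0.858 and 0.932%), and the part of lens RNA in it was not tested. Stc1, an inhibitor of the IGF-binding-protein protease PAPP-A, fell in WT after IOP elevation (log2 fold change -2.11 ± 0.50 SE, adjusted p = 0.032) and after ONC (log2 fold change -3.25 ± 0.54 SE, adjusted p = 0.000235). Thbs1, a TGF-β activator, and Ctsl, a protease that cleaves progranulin, rose in WT after ONC (log2 fold changes of 1.47 ± 0.35 SE and 0.90 ± 0.23 SE). In all, 3 of the 27 were called in WT after ONC (18.1% of all genes). In KO after ONC 4 rose and 0 fell (12.7% and 11% of all genes), namely Ctsl, the lysosomal partner of progranulin Psap, and the sheddases Adam17 and Adam10. The same 4 rose in KO after IOP elevation, with 1 fall, Itgb8 (5 called, 7.88% of all genes). With the microglia marker covariate the counts called were 2 in KO ONC and 0 in KO IOP. Ctsl was also lower in naïve KO than in naïve WT libraries (log2 difference -1.20 ± 0.22 SE, adjusted p = 0.0155). The 12 microglia markers had a median log2 difference of -0.94 in the same comparison, with 1 of them called lower.

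Of 40 other trophic factors, 34 were tested. After IOP elevation 2 rose in WT and 0 fell (1.56% of all genes were called). Fgf2 was 1323, 904, 480.0 and 1569 in WT IOP against 140.3, 129, 145 and 128 in naïve WT libraries (log2 fold change 2.84 ± 0.41 SE, adjusted p = 0.00081). Btc, the EGF-family ligand betacellulin, was 815, 440.1, 130.1 and 1183 against 41.7, 44.9, 93.7 and 55.7 (log2 fold change 3.09 ± 0.57 SE, adjusted p = 0.00497). In both genes all WT IOP libraries were above all naïve WT libraries and replicate 4 was the highest. Both were lower in KO IOP than in WT IOP libraries (log2 difference -2.34 ± 0.41 SE, adjusted p = 0.00395 for Fgf2 and log2 difference -3.79 ± 0.57 SE, adjusted p = 0.000709 for Btc). Markers of the lens took 0.858, 0.181, 0.124 and 0.932% of the normalized counts in WT IOP replicates 1 to 4 and at most 0.0165% in each other library, the same 2 libraries being highest in Fgf2, Btc and the lens markers. The part of lens RNA in these rises was not tested.

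After ONC 2 of these factors rose and 4 fell in WT (18.1% of all genes were called), and 2 rose and 4 fell in KO (23.6%). With the microglia marker covariate 7 were called in WT and 0 in KO. In WT Fgf2 and Tgfa rose and Il34, Tgfb3, Pdgfd and Ptn fell, and in KO Pros1 and Clcf1 rose and Ptn, Tgfb2, Bdnf and Mdk fell. Ptn, which encodes the heparin-binding factor pleiotrophin, fell in both (log2 fold change -1.46 ± 0.44 SE, adjusted p = 0.025 in WT and log2 fold change -1.76 ± 0.41 SE, adjusted p = 0.00352 in KO). Pros1, protein S, a ligand of the TAM receptors, rose in KO after ONC and after IOP elevation (log2 fold changes of 1.29 ± 0.32 SE and 1.35 ± 0.32 SE). In all, 0 of these factors were called in KO against WT in naïve retinas or after ONC.

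Pairs within the set followed the ONC groups. Over the 23 libraries, which share groups and depth, the Pearson r of log2 values was 0.87 between Grn and Csf1, 0.78 between Pdgfa and Csf1, -0.80 between Hbegf and Csf1 and -0.78 between Hbegf and Grn. After the group means were taken away these were 0.25, 0.47, -0.30 and -0.35. The genes most like Csf1 were H2-Q5, a class Ib MHC gene, Lgals3bp and Cfb, a complement component (r of 0.936, 0.931 and 0.928). For Igf1 they were Rgl2, Vps9d1 and Apoc1 (0.856, 0.816 and 0.802), and for Vegfa Slc9a3r2, Fam171b and Coro2b (0.844, 0.831 and 0.816).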

How the data were processed

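GFP+ microglia of 23 retinal samples in 6 groups were sequenced, and groups and replicate numbers were taken from the labels. The authors' methods name salmon and GRCm38, while the submitters' processing notes name STAR and DESeq2; versions are not given in the sources used here. The deposited values are a signal, read counts divided by a size factor per library, for 35825 genes, 35436 of which were matched to a symbol by Ensembl ID without its version (GENCODE M21, GRCm38). In 21 libraries 100% of the values are whole reads within 0.01 read, 22180480 to 30296094 in all (median 27114209), and 3 reads are worth 2.41 to 4.03 normalized counts. Reads were not recovered from replicates 2 and 4 of KO IOP, whose size factor was near 1, so edgeR and DESeq2 rest on KO IOP replicates 1 and 3 there. Reads carry no molecular identifiers.

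The 17102 genes that reached 10 in 3 or more libraries were fitted by limma 3.58.1 (R 4.3.3, intensity trend, 6 groups, 0 covariates) after adding a pseudocount of 1 and taking log2. A gene was called at an adjusted p (Benjamini-Hochberg) below 0.05 together with a change of more than 0.58 in log2 units. Fold changes understate the change of low genes. On simulated data with 200 changed genes the procedure was run for KO ONC against KO naïve. Apart from these genes all groups were drawn from common means, so differences in cell makeup were not part of this check. Alternatives were a filter at a mean of 50, or none, pseudocounts of 0.5 and 5, upper-quartile and quantile scaling, the replicate number as a block, a rod marker covariate, the compared groups alone, edgeR 4.0.16 and DESeq2 1.42.0 on recovered reads, and each library left out. A microglia marker covariate and a fit without the 6 KO libraries with Spp1 above 0.1 of the WT median of the same treatment were added after seeing the data. On recovered reads edgeR called 2415 and DESeq2 3585 genes in WT ONC against naïve, where limma called 3093.

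The 10 genes and the lists were chosen with earlier results of these data known. All 10 are given in each group described, with a fold change where called, at an unadjusted p under 0.05 or past 0.58. From other lists at most the 4 called genes with the lowest adjusted p were to be named, and the 3 genes most like a member by Pearson r. Egfr, Tgfbr1, Csf1r and Il34 in KO, Ptn and Tgfa in WT ONC, Clcf1, Mdk and Itgb8 and the motifs were chosen after values were seen.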

Additional observations from a re-analysis of the deposited data

Results flagged for a closer look

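Of 50 sets of 4 libraries tested for 1 library far from the others, 5 were marked, and chance marks about 1 in 20. The gap to the nearest library, divided by the range of the group, was 0.837 for Igf1 in KO ONC replicate 1 (2589 normalized counts, the nearest at 1602), 0.979 for Pdgfa in KO IOP replicate 3 (368, the nearest at 267) and 0.849 for Hbegf in KO IOP replicate 3 (288, the nearest at 205). In naïve KO replicate 3 it was 0.935 for Osm (345, the nearest at 112) and 0.864 for Grn (70507, the nearest at 30615). This last library is also the naïve KO library with the highest share of microglia markers (3.58%) and the lowest share of rod markers (1.14%). Its Y-linked Ddx3y was at 28.1 normalized counts, against 1302 to 1713 in naïve KO replicates 1, 2 and 4.

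The effect of IOP elevation on Grn differed between KO and WT by 1.46 on the log2 scale in the test of the interaction (adjusted p = 0.0451), and by -0.0193 with the microglia markers as a covariate.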

How the results depend on the processing

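The counts of called genes among the 10 kept their value in all alternatives for WT ONC (3), WT IOP (0), KO IOP against WT IOP (0) and the interaction with ONC (0). In KO IOP against naïve KO (1 called) the count was 3 with quantile scaling and 0 with the rod covariate, the microglia covariate, the compared groups alone, edgeR, or without the KO libraries with high Spp1, and 0 to 4 with 1 library left out. In KO ONC against naïve KO (7) it was 3 with the rod covariate (Igf1, Grn and Csf1), 2 with the microglia covariate (Grn and Csf1), 1 without the KO libraries with high Spp1 (Csf1; Grn had an adjusted p of 0.0512), a fit that leaves 3 naïve KO, 2 KO IOP and 1 KO ONC library, the lone one being assumed to vary like the other groups, and 5 to 7 with 1 library left out. In the interaction with IOP (1) it was 2 in the compared groups alone and 0 without a filter, with upper-quartile scaling, either covariate, edgeR, DESeq2 or without the KO libraries with high Spp1, and 0 to 1 with 1 library left out. Leaving out 1 library gave 0 to 2 in KO against WT in naïve retinas, 0 to 1 after ONC, and 4 to 6 genes in the test over 6 groups (3 to 5 in the other alternatives). The cause was not tested.

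The direction turned for Igf1 in KO ONC against WT ONC without WT ONC replicate 1 (-0.0820, the range without 1 library being -0.0820 to 1.28), and in the interaction with IOP for Osm with edgeR (-0.0856), DESeq2 (-0.0732), without the KO libraries with high Spp1 (-0.0475) and with the microglia covariate (-0.0637). With the microglia covariate it also turned for Grn in KO against WT naïve (0.16), in the interaction with IOP (-0.0193) and in that with ONC (-0.0033), and for Vegfa in KO IOP against naïve KO (0.26) and in the interaction with IOP (0.51). Over all values of single genes, 993 kept direction and call, 58 lost the call, 9 gained it and 10 turned. Over all genes, calls in KO IOP against naïve KO went from 1347 to 17 with edgeR, 9 with the rod and 4 with the microglia covariate, and in KO ONC against naïve KO from 4043 to 517 and 352 with these covariates.

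The sources used here do not say that a replicate number marks a shared animal, and same-numbered libraries had correlations of -0.253 to 0.153 in their deviations from group means. With the replicate block the counts of called genes were the same in all comparisons (3 in WT ONC, 7 in KO ONC).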
